A study of Mus musculus with 24 samples.

Results

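Transcripts of 10 genes of the hepatic insulin pathway were followed in mouse liver, out of 23972 genes with counts. The 10 genes were taken by name as the receptor Insr, the adaptors Irs1 and Irs2, the regulatory PI3K subunit Pik3r1, the kinases Akt1 and Akt2, the transcription factors Foxo1 and Foxo3, and the binding proteins Igfbp1 and Igfbp2. All 10 were counted in every library, and none was lost to a filter on low values.

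The livers came from female mice fed a 60% high-fat diet at 22 °C. Control mice carried Lmna fl/fl, with loxP sites around exons 10 and 11, without Cre. Lmna ADKO mice carried the same alleles with Adipoq-Cre, which deletes Lmna in adipocytes and leaves hepatocytes with the intact floxed alleles, and they are a model of lipodystrophy. Mice were 12 to 14 weeks old at the start of the experiment. They ate the diet for 4 weeks before a rescue or vehicle was given, and livers were taken 8 weeks later. The labels name the treatment a rescue, which by the study's methods is an AAV8 vector that expresses mouse FGF21, the fasting-induced hepatic hormone. The vehicle was saline without a vector, so the transgene and the vector cannot be told apart. There were 7 control vehicle, 3 control rescue, 6 Lmna ADKO vehicle, and 8 Lmna ADKO rescue libraries, numbered here within each group.

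The libraries held 19863304 to 21510054 counted reads each. Values are given as CPM, the count of a gene over the library size after TMM scaling. Control vehicle library 3, control rescue library 3, and Lmna ADKO rescue library 7 stood apart, since their log2 CPM relative to the median of their genotype fell most with gene length. Their slopes on log2 length were -0.154, -0.289, and -0.331, against -0.109 to 0.128 in the other 21. Counts of 2 genes were compared with the labels. Lmna was counted in every group (means 18.3 to 26.7 CPM) and was higher in Lmna ADKO than control livers with vehicle (log2 fold change 0.52, adjusted p = 0.00322 by edgeR), and counts over whole liver do not check a deletion in adipocytes. Fgf21 did not pass edgeR's test for rescue against vehicle (0.24, adjusted p = 0.925 in controls and -0.58, adjusted p = 0.73 in Lmna ADKO mice). The study reports that plasma FGF21 rose after the vector was given, disproportionately so in Lmna ADKO mice. Whether reads from the vector enter the Fgf21 count was not tested, so this count does not check the treatment label. Hepatocyte markers summed to 71549–127339 CPM in control vehicle and 64013–97635 in Lmna ADKO vehicle livers, and 1 of 5, Cps1, the first enzyme of the urea cycle, fell (2077 to 1094 CPM, log2 fold change -0.93, adjusted p = 0.00155 by edgeR). Adipocyte markers summed to at most 3.61 CPM. Cholangiocyte markers summed to 27.0–51.2 CPM in control vehicle, 32.2–38.4 in control rescue, 85.8–196 in Lmna ADKO vehicle, and 50.3–241 in Lmna ADKO rescue livers, and 1 of these 5 markers, Spp1, which other cells express as well, passed the test with vehicle (32.7 to 116 CPM). Without Spp1 the other 4 summed to 3.74–7.96 CPM in control vehicle and 7.06–10.1 in Lmna ADKO vehicle livers. Stellate cell and fibroblast markers summed to 176–267, 206–215, 257–395, and 221–439 CPM in the same order, and 4 of 6 rose with vehicle. Dcn (138 to 189 CPM) made up the largest part of these sums with vehicle. Des had a lower mean (6.99 to 5.78 CPM) and did not pass edgeR's test. The sums of macrophage, endothelial, T and B cell, and pancreatic acinar cell markers overlapped between genotypes with vehicle. Single markers among them passed the test, with Gpnmb higher among 6 macrophage markers, Lyve1 (6.04 to 23.1 CPM) and Pecam1 higher and Stab2 lower among 5 endothelial markers, Cela1 lower among 3 acinar markers, and none of 4 T and B cell markers.

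In hepatocytes, insulin binds its receptor, which phosphorylates the IRS adaptors. The adaptors dock PI3K, whose lipid product recruits AKT to the membrane, and AKT phosphorylates FOXO factors and keeps them out of the nucleus. IGFBP1 is a classic gene that FOXO factors induce in fasting and insulin represses, and IGFBP2 is a liver-secreted binding protein whose gene leptin induces.

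Of the 10 genes, 4 passed edgeR's quasi-likelihood test in Lmna ADKO vehicle against control vehicle at an adjusted p under 0.05, and 15.1% of all genes passed it (8.35% higher and 6.76% lower). All 10 genes were among the 12492 with a mean log2 CPM above 0, of which 24.4% passed. Irs2, Akt1, and Igfbp2 fell and Foxo1 rose, and the fall exceeded 1.5-fold in 2 of them, Irs2 and Igfbp2 (3.36% of all genes fell by such a fold). At an unadjusted p under 0.05 there were 9 of 10, all but Igfbp1, against 27% of all genes. DESeq2 called 5 of 10, against 18.3% of all genes. These last 2 shares are over all genes, with those of a mean log2 CPM below 0 included. Of the 6 genes that did not pass, Insr, Irs1, and Akt2 lay at negative and Pik3r1, Foxo3, and Igfbp1 at positive log2 fold changes. With the rescue in both genotypes, 2 of the 10 genes passed (Akt1 and Igfbp2, both lower) and 3.85% of all genes did (2.14% higher and 1.71% lower). The rescue itself gave no call by edgeR among the 10 genes in either genotype, and DESeq2 called 1 of them, Foxo1, in controls, where it called 0.184% of all genes. Since these were bulk livers, fewer cells of a type and less RNA per cell cannot be told apart. The part of the cell type markers that differed with genotype, given above, in the results was not tested.

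**Figure D1:**
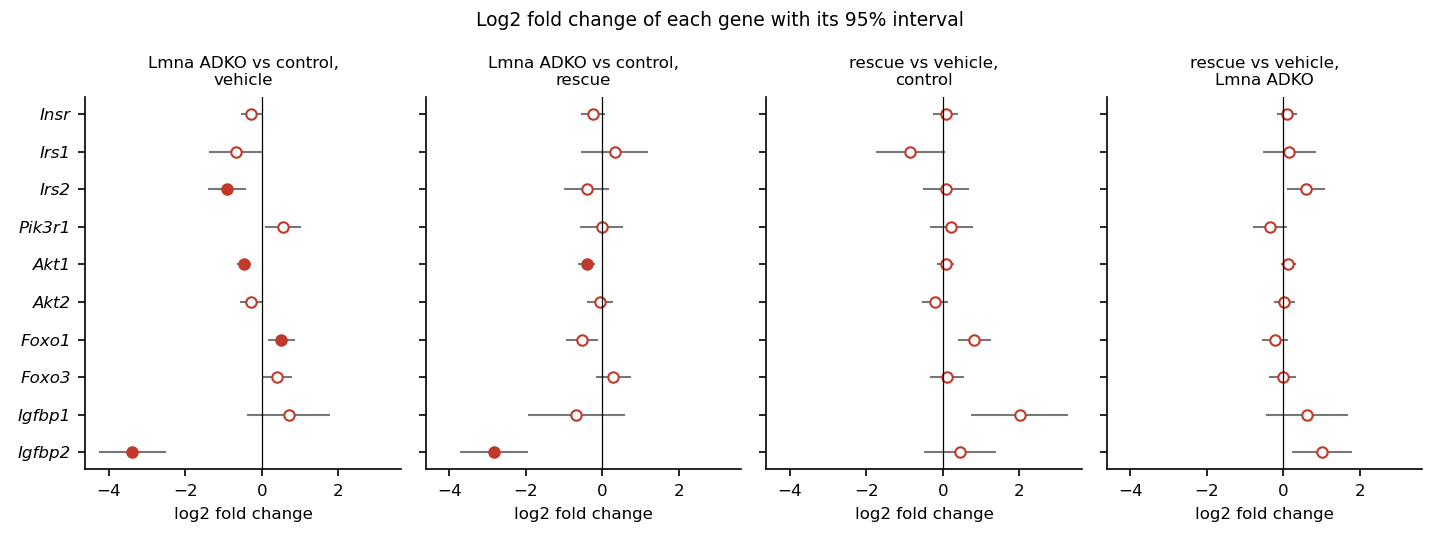
Log2 fold changes (x axis) of the 10 genes (rows) in 4 comparisons of groups, with 95% intervals as lines, filled where the gene passed edgeR's test at an adjusted p under 0.05. Igfbp2 lay at -3.38 with vehicle and -2.83 with the rescue between genotypes, and no gene was filled in the 2 comparisons of rescue with vehicle.

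The levels of the 10 genes were compared per length of exon. In control vehicle livers, Igfbp2 stood first at 338 ± 139 CPM per kb (SD, n = 7), ahead of Igfbp1 at 28.8 ± 16.3. Akt1 (19.1 ± 1.97 CPM per kb) and Akt2 (16.5 ± 1.35) followed, and the ranges of Igfbp1, Akt1, and Akt2 over libraries overlapped. Insr (6.46 ± 1.04), Pik3r1 (4.68 ± 1.34), Foxo3 (3.77 ± 1.02), Irs2 (3.28 ± 0.592), and Foxo1 (2.79 ± 0.671) formed the middle, in which each overlapped its neighbor. Irs1 was lowest at 0.71 ± 0.183 CPM per kb and lay below every other gene. In Lmna ADKO vehicle livers, Igfbp1 (46.7 ± 30.4 CPM per kb, n = 6) stood before Igfbp2 (32.4 ± 16.5), with overlap between these neighbors. Irs1 was the lowest of the 10 in each of the 4 groups by the mean.

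Insr, on chromosome 8 (GRCm38, 3122061 to 3279617, minus strand), encodes the insulin receptor. Its level was 79.0 to 121 CPM in control vehicle livers with a median of 85.1, and 69.2 to 81.7 with a median of 71.3 in Lmna ADKO vehicle livers. With the rescue, the 3 control livers had 116, 86.7, and 77.7 CPM, and the 8 Lmna ADKO livers had 56.2 to 93.8 with a median of 80.2. The vehicle groups overlapped only through 1 Lmna ADKO liver, as 5 of 6 lay below every control. The log2 fold change was -0.28 ± 0.12 (SE, n = 6 and 7), which did not pass edgeR's test (adjusted p = 0.118). Without the 3 libraries that stood apart it was -0.28 as well, with an adjusted p of 0.0428 by edgeR. Between genotypes with the rescue, the log2 fold change was -0.25 ± 0.14 (adjusted p = 0.381 by edgeR).

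The adaptors IRS1 and IRS2 carry the signal from the receptor to PI3K, and IRS2 is induced in the fasted liver. Irs2 (chromosome 8, 10984681 to 11008458, minus strand) was counted at 14 to 24 CPM in control vehicle livers, with a median of 22.1, and at 7.56 to 13.1 CPM in Lmna ADKO vehicle livers, with a median of 11.8. All 6 Lmna ADKO livers lay below all 7 controls, a separation in this direction that 3.73% of all genes had. Irs2 fell 1.89-fold, a log2 fold change of -0.92 ± 0.23 (95% interval -1.39 to -0.45, adjusted p = 0.0072 by edgeR), and by -0.90 without the 3 libraries that stood apart. With the rescue, the 3 control livers had 23.3, 30.3, and 12.3 CPM and the 8 Lmna ADKO livers had 9.21 to 24.3 with a median of 16.7. The groups overlapped widely, and the difference did not pass the test (log2 fold change -0.41 ± 0.27, adjusted p = 0.456 by edgeR). Within Lmna ADKO mice, 5 of 8 rescue livers lay above all vehicle livers, and the log2 fold change of 0.59 ± 0.22 had an unadjusted p of 0.0138 and an adjusted p of 0.704 by edgeR.

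Irs1 (chromosome 1, 82233101 to 82291416, minus strand) was counted at 3.26 to 8.33 CPM in control vehicle livers (median 6.78) and at 2.73 to 5.32 CPM in Lmna ADKO vehicle livers (median 4.1). All 6 Lmna ADKO livers were below the control median, but only 1 was below every control. The difference was -0.69 ± 0.33 on the log2 scale (adjusted p = 0.177 by edgeR). In its group, Irs1 was lowest in each library that stood apart, at 3.26, 0.99, and 0.999 CPM, and without them the value was -0.79 with an adjusted p of 0.00153 by edgeR. With the rescue, the 3 control livers had 5.8, 3.95, and 0.99 CPM and the 8 Lmna ADKO livers had 0.999 to 6.53 with a median of 4.65, so the groups overlapped. Irs1 overlaps Gm9747 on the opposite strand, which was counted at 10.8 CPM on average. The libraries mark strand, but the strand setting of the counting is not given in the sources used here. In every one of the 24 libraries Irs2 was above Irs1 per length, with median ratios of 4.4 in control vehicle, 11.1 in control rescue, 4.0 in Lmna ADKO vehicle, and 5.23 in Lmna ADKO rescue livers.

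The bases before the start sites of both adaptor genes are shown because a sequence known as the insulin response element, to which FOXO factors bind, was found in each. The RefSeq windows (GRCm38.p6) run from 250 bases before to 50 bases after a start site, and 9 of the 10 genes had at least 1 entry. The letters searched were CAAAACA for the insulin response element and GTAAACA for the forkhead core, on both strands (TGTTTTG and TGTTTAC in reverse). The motifs differ in letters, so no match was counted under both. Of 32851 mouse promoter windows, 6.28% held CAAAACA, 3.65% held GTAAACA, and 9.63% held either. Counted by gene, 10.8% of 27025 genes held either in at least 1 window. Of the 9 genes, 4 had a match in any window (Irs1, Irs2, Akt1, and Igfbp1) and 5 had none (Pik3r1, Akt2, Foxo1, Foxo3, and Igfbp2). A match is a description of these letters only. Capitals mark the matches, which begin 37 bases before the start site in Irs2 (chr8:11008930-11008996, minus strand) and 111 and 32 bases before it in Irs1 (chr1:82291440-82291580, minus strand).
Irs2: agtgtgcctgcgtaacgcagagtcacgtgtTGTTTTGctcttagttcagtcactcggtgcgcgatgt
Irs1: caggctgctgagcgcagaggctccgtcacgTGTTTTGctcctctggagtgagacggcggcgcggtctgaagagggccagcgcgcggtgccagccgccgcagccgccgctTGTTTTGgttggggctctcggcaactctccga

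Pik3r1 (chromosome 13, 101680563 to 101768217, minus strand) encodes p85α, which holds the catalytic PI3K subunit at the adaptors. It was counted at 33.6 to 69.1 CPM in control vehicle livers (median 51.8) and at 46.9 to 90.8 in Lmna ADKO vehicle livers (median 64.4). Of the 6 Lmna ADKO livers, 5 were above the control median and 2 above every control. The log2 fold change was 0.55 ± 0.21 with an adjusted p of 0.0866 by edgeR, whereas DESeq2 gave an adjusted p of 0.0431. With the rescue, the 3 control livers had 73.4, 48.0, and 43.0 CPM and the 8 Lmna ADKO livers had 31.4 to 86.6 with a median of 51.7, and the log2 fold change was -0.02 ± 0.26.

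AKT1 and AKT2 are the serine kinases activated through PI3K, and AKT2 is the form that carries most of insulin's metabolic action in liver. Akt1 (chromosome 12, 112653821 to 112674884, minus strand) was counted at 67.5 to 90.7 CPM in control vehicle livers (median 79.6) and at 51.3 to 62.1 in Lmna ADKO vehicle livers (median 56.5). It was counted at 78.6, 77.7, and 90.3 CPM in the 3 control rescue livers and at 58.0 to 64.0 in the 8 Lmna ADKO rescue livers (median 62.5). All 14 Lmna ADKO livers were thus below all 10 control livers, and the highest Lmna ADKO value was 64.0 CPM against a lowest control value of 67.5. Of all genes, 0.467% were lower in this way over both treatments, and Akt1 and Igfbp2 were the 2 among the 10.

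Akt1 fell 1.39-fold with vehicle, a log2 fold change of -0.47 ± 0.08 (adjusted p = 0.000149 by edgeR). With the rescue it fell 1.33-fold, a log2 fold change of -0.41 ± 0.10 (adjusted p = 0.0126 by edgeR), and the separation of all 8 from all 3 livers was shared by 2.37% of genes in the same direction. Neither change exceeded 1.5-fold. The call with the rescue was lost without control rescue library 3, the highest of its group at 90.3 CPM, where Akt1 was at -0.34 with an adjusted p of 0.122 by edgeR, and without the 3 libraries that stood apart it was at -0.33 with an adjusted p of 0.0713. It was lost as well with only the groups compared (-0.41, adjusted p = 0.0811) and with only the libraries of 4-digit numbers (-0.41, adjusted p = 0.161), which hold all 3 control rescue libraries. With vehicle, the value without those 3 libraries was -0.46 (adjusted p = 5.61e-05 by edgeR). The difference between the 2 effects of genotype on Akt1 was 0.06 ± 0.13 on the log2 scale, with a 95% interval of -0.20 to 0.32.

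Akt2 (chromosome 7, 27591552 to 27640826, plus strand) was counted at 104 to 130 CPM in control vehicle livers (median 117) and at 87.1 to 103 in Lmna ADKO vehicle livers (median 97.8). All 6 Lmna ADKO livers were below all 7 controls, as in 3.73% of all genes, but by a narrow gap (103 against 104 CPM). The log2 fold change of Akt2 was -0.29 ± 0.12 (1.22-fold lower) and did not pass edgeR's test (adjusted p = 0.13), but without the 3 libraries that stood apart it was -0.31 with an adjusted p of 0.00356. With the rescue, the control livers had 112, 124, and 73.2 CPM and the Lmna ADKO livers 59.0 to 111 with a median of 106, and the log2 fold change was -0.06 ± 0.15. The lowest value of each rescue group came from a library that stood apart. Per length, Akt1 and Akt2 were close to each other, with a median ratio of Akt1 over Akt2 of 1.08 in control vehicle and 1.01 in Lmna ADKO vehicle livers.

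Of the kinase genes, Akt1 alone had a match among the letters searched. A reverse forkhead core begins 161 bases before its first RefSeq start site (chr12:112675009-112675075, minus strand), and it is shown in capitals because Akt1 is the member that separated the genotypes under both treatments beside Igfbp2, which held no match.
Akt1: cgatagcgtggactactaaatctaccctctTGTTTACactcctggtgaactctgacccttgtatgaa

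**Figure D2:**
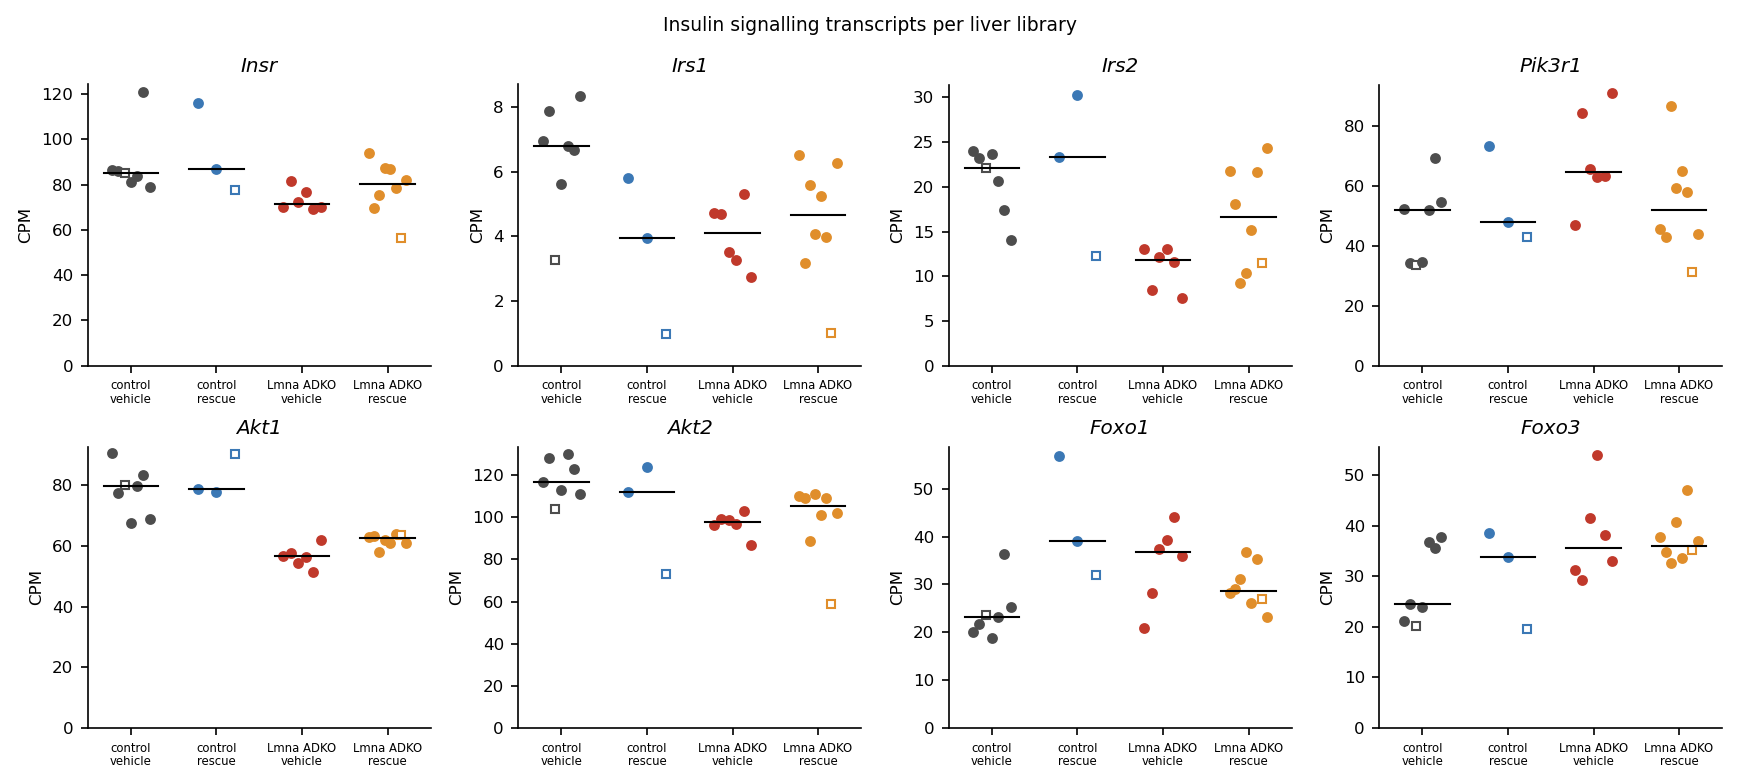
CPM per library (y axes, from 0) of the receptor, adaptors, PI3K subunit, kinases, and FOXO factors in the 4 groups (x axes), with 1 point per library, lines at the medians, and open squares for the 3 libraries that stood apart. All 14 Lmna ADKO points of Akt1 lie at or below 64.0 CPM and all 10 control points at or above 67.5 CPM, while the groups overlap for Pik3r1 and Foxo3.

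FOXO1 is the main FOXO factor of liver and drives gluconeogenic genes in fasting, and FOXO3 acts alongside it. Foxo1 (chromosome 3, 52268336 to 52353221, plus strand) was counted at 18.9 to 36.4 CPM in control vehicle livers (median 23.3) and at 20.9 to 44.2 in Lmna ADKO vehicle livers (median 36.7). The groups overlapped, with 3 of 6 Lmna ADKO livers above every control. Foxo1 rose 1.42-fold, a log2 fold change of 0.51 ± 0.16 (adjusted p = 0.0334 by edgeR). Leaving out 1 library at a time ended this call in 9 of 24 fits, at log2 fold changes of 0.42 to 0.50. The 9 libraries were control vehicle 1 to 5 and Lmna ADKO vehicle 3 to 6. It was lost as well without the 3 libraries that stood apart (0.51, adjusted p = 0.053 by edgeR) and in the fit of only the groups compared.

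With the rescue, Foxo1 was counted at 56.9, 39.0, and 31.9 CPM in the 3 control livers and at 23.2 to 36.7 in the 8 Lmna ADKO livers (median 28.6). Of the 3 control rescue livers, 2 lay above every control vehicle liver, and all 8 Lmna ADKO rescue livers lay below the control rescue median. The log2 fold changes of Foxo1 were 0.82 ± 0.20 for rescue against vehicle in controls and -0.22 ± 0.16 in Lmna ADKO mice, and -0.53 ± 0.19 for Lmna ADKO against control with the rescue. None of these passed edgeR's test over all genes (adjusted p = 0.223, 0.774, and 0.132). In the test of the interaction of genotype and treatment, Foxo1 had the lowest p of the 10 genes, with a log2 value of -1.04 ± 0.25, an unadjusted p of 0.000331, and an adjusted p of 0.466 by edgeR. DESeq2 called Foxo1 in control rescue against control vehicle (0.83, adjusted p = 0.0425), and so did edgeR without control vehicle library 6, which held the highest control vehicle value (0.95, adjusted p = 0.0256). All 3 control rescue libraries have 4-digit numbers, against 1 of 7 control vehicle libraries, a limit given below.

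Foxo3 (chromosome 10, 42181841 to 42276755, minus strand) was counted at 20.2 to 37.7 CPM in control vehicle livers (median 24.6) and at 29.2 to 53.9 in Lmna ADKO vehicle livers (median 35.6). All 6 Lmna ADKO livers were above the control median and 3 were above every control. The log2 fold change of 0.41 ± 0.17 did not pass edgeR's test (adjusted p = 0.109). The 3 control rescue livers had 38.5, 33.9, and 19.6 CPM and the 8 Lmna ADKO rescue livers had 32.7 to 47.0 (median 36.1), with a log2 fold change of 0.28 ± 0.21. Per length, Foxo3 was above Foxo1 in 6 of 7 control vehicle, 0 of 3 control rescue, 5 of 6 Lmna ADKO vehicle, and 8 of 8 Lmna ADKO rescue livers. In the 3 control rescue livers Foxo1 over Foxo3 was 1.29, 1.01, and 1.42. The second was near equality, and the last came from a library that stood apart. The order of the 2 factors thus differed from that in all Lmna ADKO rescue livers only as a description of these libraries.

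IGFBP1 and IGFBP2 bind IGFs in plasma and set how much of them reaches the receptor. The promoter bases of both genes follow, because the genes held the highest and the lowest log2 fold change of the 10 between genotypes with vehicle, of which that of Igfbp2 passed the test. Igfbp1 is on chromosome 11 (7197782 to 7202546, plus strand) and Igfbp2 on chromosome 1 (72824503 to 72852474, plus strand). Each run holds the 250 bases before the first RefSeq start site (chr11:7197537-7197786 and chr1:72824230-72824479). The insulin response element letters begin 108 bases before the start site of Igfbp1 and are in capitals, and no match was found in either window of Igfbp2.
Igfbp1: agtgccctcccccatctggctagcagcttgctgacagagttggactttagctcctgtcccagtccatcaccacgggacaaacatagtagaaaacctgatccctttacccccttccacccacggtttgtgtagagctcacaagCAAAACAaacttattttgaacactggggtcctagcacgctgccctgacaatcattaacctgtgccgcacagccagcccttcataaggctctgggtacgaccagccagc
Igfbp2: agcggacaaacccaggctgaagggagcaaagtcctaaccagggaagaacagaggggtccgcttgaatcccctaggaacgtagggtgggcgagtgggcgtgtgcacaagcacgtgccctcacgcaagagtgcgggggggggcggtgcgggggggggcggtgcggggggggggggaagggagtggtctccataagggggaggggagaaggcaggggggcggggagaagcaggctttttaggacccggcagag

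Igfbp2 was the most changed of the 10 genes between genotypes. The 7 control vehicle livers had 283 to 856 CPM with a median of 786, and the 6 Lmna ADKO vehicle livers had 23.5 to 113 with a median of 58.8. The 3 control rescue livers had 593, 955, and 1002 CPM, and the 8 Lmna ADKO rescue livers had 31.9 to 165 with a median of 135. No Lmna ADKO liver reached the lowest control liver under either treatment. The control vehicle values were uneven, with 283, 312, and 483 CPM and then 786 to 856.

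Igfbp2 was 10.4-fold lower in Lmna ADKO vehicle than in control vehicle livers, a log2 fold change of -3.38 ± 0.41 (95% interval -4.24 to -2.53, adjusted p = 8.94e-06 by edgeR). With the rescue it was 7.11-fold lower (-2.83 ± 0.41, 95% interval -3.69 to -1.97, adjusted p = 0.000393 by edgeR). Without the 3 libraries that stood apart the values of Igfbp2 were -3.28 and -2.73 (adjusted p = 6.28e-05 and 0.00875). The call was kept in all 24 fits that left out 1 library and under each other alternative, in both comparisons.

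Library numbers in the labels have 3 or 4 digits, and in the vehicle groups this series goes almost with genotype, since 6 of 7 control vehicle numbers have 3 digits and 5 of 6 Lmna ADKO vehicle numbers have 4. In controls the series goes almost with the treatment as well, since all 3 control rescue numbers have 4 digits. The values for rescue against vehicle in controls, and for the interaction, carry this limit. Of the 8 Lmna ADKO rescue numbers, 4 have 4 digits. The series was therefore also uneven, though less so, between treatments in Lmna ADKO mice and between genotypes with the rescue. Within the 3-digit series, Igfbp2 was 39.6 CPM in the 1 Lmna ADKO vehicle liver against 283 to 856 in 6 controls, and within the 4-digit series 23.5 to 113 in 5 Lmna ADKO livers against 312 in the 1 control. For Irs2, the 3-digit series gave 13.1 CPM against 17.4 to 24, and the 4-digit series 7.56 to 13.0 against 14. For Akt1 the values were 56.6 against 67.5 to 90.7 CPM, and 51.3 to 62.1 against 68.8. Foxo1 was 20.9 CPM in the 1 Lmna ADKO liver with 3 digits, inside the control range of 18.9 to 36.4, and 28.3 to 44.2 against 25.3 with 4 digits. With the series as a covariate the log2 fold changes were -3.22 for Igfbp2 (adjusted p = 0.000354 by edgeR), -0.89 for Irs2 (0.0491), -0.44 for Akt1 (0.00394), and 0.44 for Foxo1 (0.2). What the series stands for is not given in the labels.

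The rescue did not bring Igfbp2 of Lmna ADKO livers into the control range. Of 8 Lmna ADKO rescue livers, 5 were above every Lmna ADKO vehicle liver and 7 above the vehicle median. This was a log2 fold change of 1.0 ± 0.37 (95% interval 0.24 to 1.76, 2.0-fold, unadjusted p = 0.0123), with an adjusted p of 0.704 by edgeR. Over all genes, edgeR called 0 in this comparison (0% of 23972), with 1608 genes (6.71%) at an unadjusted p under 0.05, and DESeq2 called 22 genes (0.0918%). Among the 10 genes, 2 had an unadjusted p under 0.05 (Irs2 and Igfbp2, both at positive values) and DESeq2 called 0. The other 8 genes lay between log2 fold changes of -0.35 (Pik3r1) and 0.63 (Igfbp1).

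Igfbp1 spread widely within each group. The 7 control vehicle livers had 12.9 to 87.3 CPM (median 40.7) and the 6 Lmna ADKO vehicle livers 20.5 to 152 (median 65.0). The 3 control rescue livers had 182, 272, and 73.9 CPM and the 8 Lmna ADKO rescue livers 27.7 to 226 (median 88.1). Apart from the control rescue group, in which 2 of 3 livers lay above every control vehicle liver, the groups lay across each other. On the log2 scale the difference was 0.70 ± 0.51 for genotype with vehicle (adjusted p = 0.422 by edgeR) and -0.68 ± 0.60 with the rescue (adjusted p = 0.599).

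For rescue against vehicle, the log2 fold change of Igfbp1 was 2.0 ± 0.60 in controls (4.01-fold, 95% interval 1.69 to 9.5-fold) and 0.63 ± 0.50 in Lmna ADKO mice. In controls the unadjusted p was 0.00312 and the adjusted p 0.459 by edgeR, so it did not pass. Rescue and number series go almost together among controls and cannot be told apart well in this comparison. In that comparison 0 of the 10 genes passed edgeR's test against 0.0542% of all genes, 2 had an unadjusted p under 0.05 (Foxo1 and Igfbp1, against 6.16% of all genes), and DESeq2 called 1 (Foxo1). The other 8 genes lay between log2 fold changes of -0.85 (Irs1) and 0.45 (Igfbp2) in control rescue against control vehicle livers. The interaction on Igfbp1 was -1.38 ± 0.79 on the log2 scale, with a 95% interval from -3.01 to 0.26. In the interaction, 0 of the 10 genes passed edgeR's test, 1 had an unadjusted p under 0.05 (Foxo1), and DESeq2 called 0. Of all genes, 0.00417% passed edgeR's test, 4.86% had an unadjusted p under 0.05, and DESeq2 called 0.0542%.

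**Figure D3:**
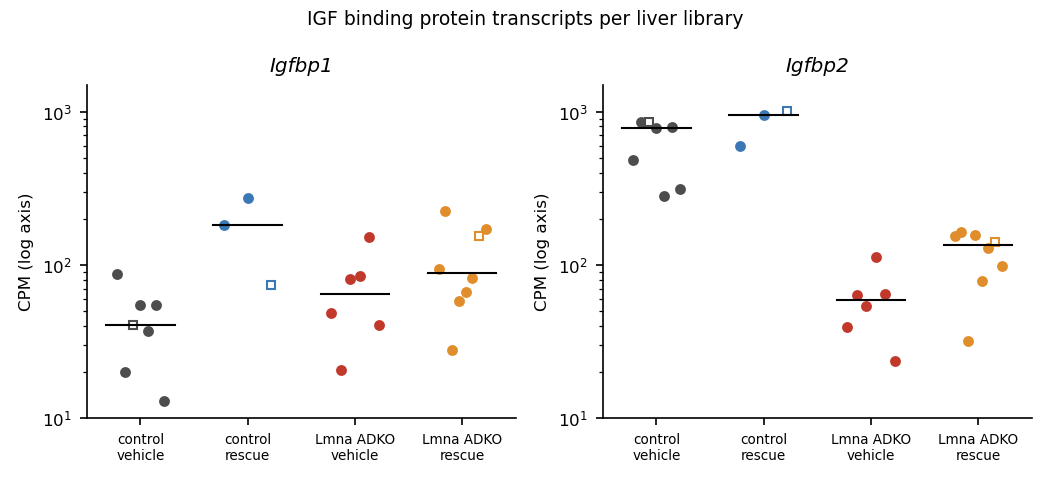
CPM per library (y axes, logarithmic) of Igfbp1 and Igfbp2 in the 4 groups (x axes), with 1 point per library, lines at the medians, and open squares for the 3 libraries that stood apart. Igfbp2 lies at 283 CPM or above in every control and at 165 CPM or below in every Lmna ADKO liver, whereas the groups overlap for Igfbp1.

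The balance of the binding proteins differed between groups by its median. Per length, Igfbp2 over Igfbp1 was 4.57 to 35.4 in control vehicle livers (median 11.9) and 0.352 to 2.57 in Lmna ADKO vehicle livers (median 0.611). It was 2.69 to 11.2 in control rescue livers (median 2.9) and 0.478 to 2.22 in Lmna ADKO rescue livers (median 0.967). Igfbp1 was above Igfbp2 in 4 of 6 and 5 of 8 Lmna ADKO livers and in none of the control livers.

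Other genes of the pathway were counted over 7 lists by role, of which 70 of 71 genes were measured and Irs4 was not analysed here. With vehicle, 6 rose and 7 fell among the 70, and the median log2 fold change was 0.04. As above, 15.1% of all genes passed, and 24.4% of those with a mean log2 CPM above 0. DESeq2 called 20 of the 70, against 18.3% of all genes. With the rescue, 2 rose and 2 fell (3.85% of all genes, and 6.59% of those with a mean log2 CPM above 0). DESeq2 called 13 (7.35% of all genes). For rescue against vehicle edgeR called 0 of 70 in controls, with 8 at an unadjusted p under 0.05 (6.16% of all genes) and 1 called by DESeq2. In Lmna ADKO mice it called 0, with 6 at an unadjusted p under 0.05 (6.71% of all genes) and 0 called by DESeq2.

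Among 9 other receptors and adaptors, 2 fell with vehicle, Sh2b1 (log2 fold change -0.38 ± 0.11) and Sh2b2 (-0.94 ± 0.18), which are SH2B adaptors of the receptor. Igf1r, the IGF1 receptor, lay at 0.00. Among 12 other PI3K subunits and kinases, 4 rose and none fell. Pik3r3, another regulatory PI3K subunit, rose by 1.32 ± 0.26 from 0.931 to 2.34 CPM (adjusted p = 0.000688 by edgeR), and all 6 Lmna ADKO livers were above all controls, as in 4.22% of all genes. The kinase Mtor (0.44 ± 0.12) and its complex partners Mlst8 (0.35 ± 0.11) and Mapkap1 (0.25 ± 0.07) rose by less. With the rescue, Pik3r3 (1.37 ± 0.35, adjusted p = 0.023) and Mlst8 (0.51 ± 0.14, adjusted p = 0.0409) passed edgeR's test again.

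Of 11 negative regulators, Enpp1, a membrane inhibitor of the receptor, fell (-0.38 ± 0.11), and 10 did not pass, such as the phosphatase Ptpn1 (0.10) and the adaptor Grb14 (0.26). Of 11 genes downstream of AKT, Gsk3b, a kinase that inhibits glycogen synthase, rose (0.42 ± 0.10) and Foxo4, another FOXO factor, fell (-0.47 ± 0.12). Of 13 other genes known as FOXO1 targets, Ccng2 rose (0.51 ± 0.17) and 12 did not pass edgeR's test with vehicle, while DESeq2 called 4 of the 13. The gluconeogenic genes G6pc (log2 fold change -0.47, 251 against 349 CPM, adjusted p = 0.265 by edgeR) and Pck1 (0.45, 2091 against 1529 CPM, adjusted p = 0.208) were among the 12 and differed in sign. Between genotypes with the rescue, edgeR called 0 of the 13 and DESeq2 4 (7.35% of all genes). For rescue against vehicle in controls, edgeR called 0 and DESeq2 1 (0.184% of all genes). There, 4 of the 13 had an unadjusted p under 0.05 by edgeR (6.16% of all genes), with the limit of the number series. In Lmna ADKO mice it was 2 of 13 (6.71%), and neither test called any.

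Of 5 genes that insulin induces, edgeR called 0 with vehicle, while 2 had an unadjusted p under 0.05 and DESeq2 called 2. The median log2 fold change of the 5 was 0.62. Srebf1, the lipogenic factor, lay at 0.04 (adjusted p = 0.924), and Fasn, the fatty acid synthase, at 0.89 (adjusted p = 0.0603). Means were also higher in Lmna ADKO vehicle livers for Acaca (97.7 to 131 CPM), Elovl6 (60.6 to 93.0), and Pnpla3 (0.285 to 1.07, at low counts).

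Of 9 IGFs and other binding proteins, 3 fell with vehicle and none rose. Igfals, the acid-labile subunit that holds IGFs in their large plasma complex, was counted at 143 to 210 CPM in control vehicle and 35.7 to 77.7 in Lmna ADKO vehicle livers, a log2 fold change of -1.54 ± 0.18 (adjusted p = 1.59e-06 by edgeR). Igf1, the hepatic growth factor, was 267 to 393 against 133 to 222 CPM (-0.89 ± 0.17), and Igfbp4 was 1529 to 2011 against 920 to 1265 CPM (-0.71 ± 0.13). All 3 separated the vehicle groups without overlap, as did 3.73% of all genes in this direction. With the rescue, Igfals (-0.83 ± 0.21, adjusted p = 0.0206 by edgeR) and Igfbp4 (-0.67 ± 0.15, adjusted p = 0.00982) passed again, and Igf1 did not (-0.43 ± 0.20, adjusted p = 0.274). Igfbp3, the main carrier of IGFs in plasma, lay at 0.23 with vehicle (adjusted p = 0.448).

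**Figure D4:**
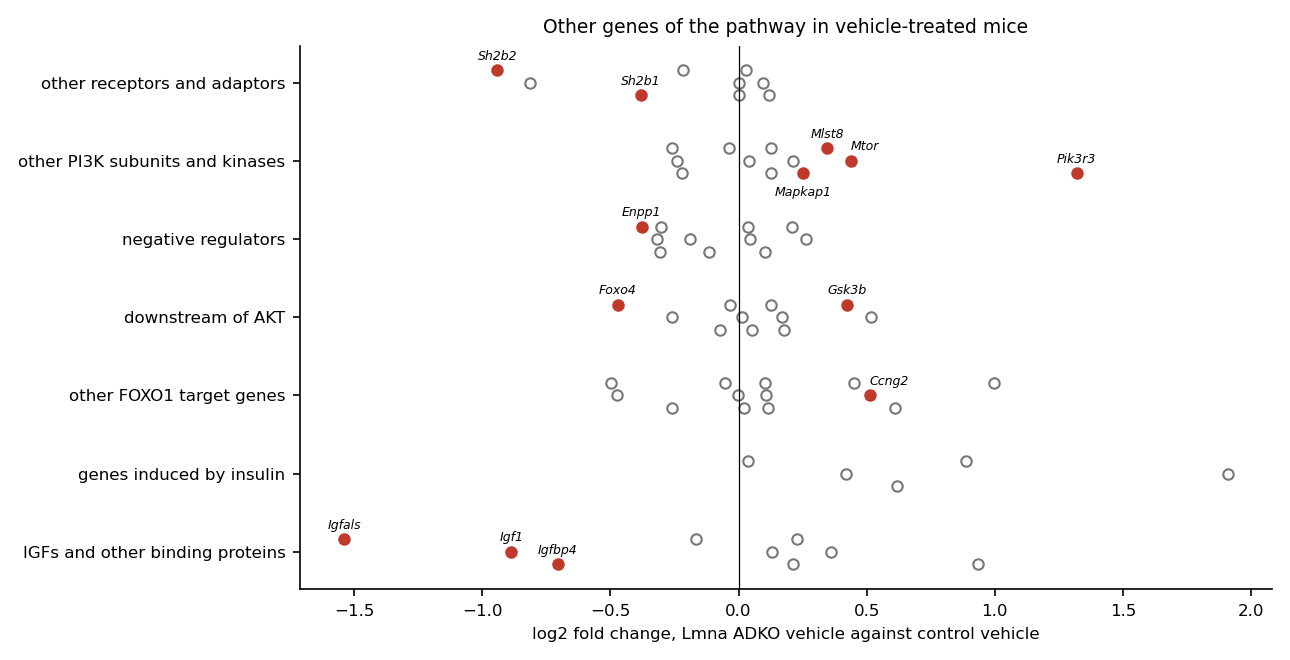
Log2 fold change of Lmna ADKO vehicle against control vehicle (x axis) for 70 other genes of the pathway in 7 lists (rows), filled and named where the gene passed edgeR's test at an adjusted p under 0.05. The 4 named PI3K subunits and kinases lie right of 0 and the 3 named IGF genes left of it, with Pik3r3 at 1.32 and Igfals at -1.54.

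Finally, the genes whose log2 CPM moved most like Igfbp1, Igfbp2, and Irs2 within groups were taken over the 24 libraries and 9924 genes with a mean log2 CPM above 2. These correlations are descriptions over libraries that share their depth and length effects. For Igfbp1 they were Irf2bp2 (Pearson's r 0.79), Slc25a22 (0.78), Frmd4b (0.74), Arl4d (0.72), and Ncf1 (0.72), of which 3 stayed among the first 5 without the 3 libraries that stood apart. For Igfbp2 they were Nlrp12 (0.90), Desi1 (0.83), Soat2 (0.81), 5830473C10Rik (0.80), and Tprkb (0.79), of which 2 stayed. For Irs2 they were 1810008I18Rik (0.79), Zfp36l1 (0.78), Wrnip1 (0.77), Gatd1 (0.77), and Khnyn (0.76), of which 1 stayed. Of the pairs of the 10 genes that hold Igfbp1, Igfbp2, or Irs2, the pair of Irs2 and Igfbp1 was most alike (0.64, and 0.68 without those libraries). Igfbp2 and Akt2 came close to it only without those libraries (0.67, against 0.07 with them). Igfbp2 and Pik3r1 were the most opposed over the 24 libraries (-0.56, and -0.53 without those 3). Irs2 and Pik3r1 lay at -0.37, and at -0.75 without them.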

How the data were processed

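PolyA RNA of whole liver was sequenced in 24 libraries. The authors deposited counts of reads per gene without normalization, after genes with a count of 0 in all samples had been removed. By the methods, annotation was from Ensembl 102. The submitters' processing notes name GRCm38, cutadapt 4.8, FastQC 0.11.8, STAR 2.7.8a, and RSEM 1.3.3, without roles. All deposited counts were whole numbers, and 0 columns lacked a sample. The methods and the library labels name different sequencing providers. A count does not tell apart reads from near-identical genes, and the counting strand is not given in the sources used here.

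All 23972 genes entered a quasi-likelihood fit of edgeR 4.0.16 (R 4.3.3), with TMM scaling, a robust glmQLFit over the 4 groups together, and glmQLFTest per contrast. No gene was filtered out and no covariate was used. A gene passed at a Benjamini-Hochberg adjusted p under 0.05 over all genes. The study's own test was DESeq2 with a fold above 1.5 as a further threshold. Standard errors are the absolute log2 fold change over the square root of F. The test was also run on simulated counts drawn with the means and dispersions of the main fit, and its outcome is not given here. Correlations used log2 CPM with a prior count of 2. Replicates are libraries with different library numbers, and each was taken as a separate mouse. The 67 pairs of libraries within groups differed beyond sampling noise (chi-square per degree of freedom 14.1 to 196 over genes with at least 20 counts). CPM per kb use exon lengths of GENCODE M21, in which 23926 genes were found. At these depths counting error is small beside the spread between livers, except for Irs1, whose counts went down to 17.

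Alternatives were DESeq2 1.42.0, DESeq2's size factors, filterByExpr, the fold threshold, only the groups compared, the number series or the length slope (9694 genes) as a covariate, only 4-digit libraries, leaving out the 3 libraries that stood apart, and leaving out each library. By the rule for named genes, all 10 genes and every gene of the lists were counted, and values were given for the 10, for list genes that passed in a contrast or have a named role, and for the 5 genes most like each of Igfbp1, Igfbp2, and Irs2. The 10 genes, the lists, and the alternatives were chosen with earlier results of these data known. Of the genes first listed for the pathway, 2 are not reported here and are left out of its counts.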

Additional observations from a re-analysis of the deposited data

Results flagged for a closer look

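For the 10 genes in the 3 groups of 6 to 8 livers (30 sets), the most extreme library was compared with its nearest neighbor on the log2 scale, as a share of the whole range of the group. In 5 of them this share was above the 95% critical value of Dixon's test, where chance gives about 1 in 20. Control vehicle library 6 held the highest Insr, at 121 CPM against 86.3 in the next library (share 0.792). Irs1 was lowest in control vehicle library 3, at 3.26 against 5.62 CPM (0.577), and in Lmna ADKO rescue library 7, at 0.999 against 3.17 CPM (0.607). The latter library also held the lowest Akt2, at 59.0 against 89.0 CPM (0.653). These 2 libraries are among the 3 that stood apart by gene length, and the part of length in these values was not tested. Igfbp2 was lowest in Lmna ADKO rescue library 3, at 31.9 against 78.9 CPM (0.55), which is within the Lmna ADKO vehicle range.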

How the results depend on the processing

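Of 1610 recomputed log2 fold changes of the 10 genes, 1542 kept direction and side of the threshold, 19 lost and 16 gained a call, and 33 changed sign, among comparisons in which the gene had not passed. Igfbp2 (both comparisons of genotype) and Irs2 (vehicle) kept their calls throughout, and Akt1 with vehicle lost its call only to the fold threshold. No paired analysis was possible because library numbers differ between all samples. The comparisons with control vehicle could not be run on 4-digit libraries, as 1 control vehicle library has such a number. The cause of each change below was not tested. Among the 10 genes, depth was lowest for Irs1, which had as few as 17 counts in a library.

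For Lmna ADKO against control with vehicle, 3623 genes became 2033 with the fold threshold, 5522 with the length slope, and 2288 with the number series, and 4 of the 10 genes became 2 with the fold threshold and 8 with the length slope. With only the groups compared, 3623 genes became 4540 and the 4 of 10 became 6, all lower. With the rescue, 924 genes became 1762 with DESeq2, 2076 with the length slope, 610 with the number series, 309 with 4-digit libraries, 355 with only the groups compared, and 575 without the 3 libraries that stood apart, and the 2 of 10 became 1 with the fold threshold, with 4-digit libraries, with only the groups compared, and without those 3. For rescue against vehicle in controls, 13 genes became 44 with DESeq2 and 0 with the number series, and 0 of 10 became 1 with DESeq2. In Lmna ADKO mice, 0 became 22 with DESeq2 and 2 with 4-digit libraries.

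Leaving out 1 library gave 383 (without control rescue 3) to 1827 genes (without Lmna ADKO rescue 7) and 1 to 2 of the 10 for genotype with the rescue, 3 (without control rescue 2) to 26 genes (without control vehicle 6) and 0 to 1 of the 10 for rescue in controls, and 0 to 75 genes (without Lmna ADKO rescue 3) for rescue in Lmna ADKO mice.

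Signs changed with the number series for Pik3r1 (0.012) in genotype with the rescue, Foxo3 (-0.08) in rescue in controls, Akt2 (-0.013) and Foxo3 (0.06) in rescue in Lmna ADKO mice, and Insr (-0.078) and Foxo3 (0.139) in the interaction, with 4-digit libraries for Akt2 (-0.066) in rescue in Lmna ADKO mice, with the length slope for Foxo3 (0.018) there and Insr (-0.024) in the interaction, and without the 3 libraries for Insr (-0.025) in the interaction. Leaving out 1 library gave ranges across 0 for Akt1 (-0.003 to 0.11), Foxo3 (-0.094 to 0.34), Insr (-0.112 to 0.191), Irs2 (-0.216 to 0.368), and Pik3r1 (-0.051 to 0.362) for rescue in controls, Akt2 (-0.254 to 0.097), Irs1 (-0.117 to 0.847), and Pik3r1 (-0.17 to 0.247) for genotype with the rescue, Foxo3 (-0.085 to 0.106) for rescue in Lmna ADKO mice, and Foxo3 (-0.358 to 0.074) and Insr (-0.088 to 0.214) in the interaction.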
